A study of Arabidopsis thaliana with 9 samples.

Results

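The 4843 pseudogenes of the Arabidopsis nuclear genome were examined under the broad H3K27me1 and H3K27me3 peaks of htr10 mutant sperm. They were all genes that the gene table classes as transcribed pseudogene (926) or as pseudogene without that word (3917, called other pseudogenes here), out of 37887 nuclear genes. The rule itself uses the gene table and no peak. "Transcribed" is the class given by the table, and no RNA was measured here. The table has no class for transposable elements.

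A pseudogene is a stretch of DNA that resembles a gene but is annotated as unable to make its full product. Arabidopsis pseudogenes include decayed copies of protein-coding genes and remnants of mobile elements, and many lie in the heterochromatin around the centromeres. H3K27me1 and H3K27me3 are methyl marks on the same lysine of histone H3. In plants, the enzymes ATXR5 and ATXR6 deposit H3K27me1, which is a hallmark of silent heterochromatin, whereas Polycomb complexes deposit H3K27me3 at repressed genes.

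The chromatin came from sperm nuclei of Arabidopsis thaliana plants of the genotype htr10, sorted by FACS after staining with SYBR Green I. HTR10 (AT1G19890, also named MGH3) encodes a histone H3 found in sperm. Mononucleosomes were cut out with micrococcal nuclease and sequenced as 50 bp paired-end reads. There were 3 immunoprecipitations with an antibody against H3K27me1, 3 with an antibody against H3K27me3 and 3 inputs of digested chromatin. All 9 samples carried the same mutant genotype, and no wild-type sample was analysed here. The ecotype label reads Col-0 for the inputs and for H3K27me1 samples 1 and 2, Col-1 for H3K27me1 sample 3, and Col-2, Col-3 and Col-4 for the H3K27me3 samples. Whether these labels describe different ecotypes was not tested. As given, no H3K27me3 sample shares its ecotype label with an input or an H3K27me1 sample, so label and mark cannot be told apart.

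The values analysed were 1 broad peak list per mark, with 11898 peaks for H3K27me1 and 12927 for H3K27me3. Each list is given in the labels of all 3 samples of its mark and holds no value per sample. The spread between samples and the sequencing depth are therefore unknown, and no difference below has a test. Intervals are Wilson 95% intervals for shares and normal 95% intervals for differences. They cover counting error over genes only, and genes are not replicates of a condition. The HTR10 gene itself had 0% of its length under either mark, which says nothing about the genotype.

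Broad peaks of a mark were merged, and a gene was called marked when they covered 50% or more of it. The sequence around each centromere was taken as a window, which ran from 12 to 18 Mb on chromosome 1 and from 1 to 7 Mb on chromosome 2. Chromosome 3 had a window from 11 to 17 Mb, chromosome 4 one from 2 to 6 Mb, and chromosome 5 one from 9 to 16 Mb. The windows hold 29 Mb in all. A gene counted as inside when its midpoint fell in its window.

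Transcribed pseudogenes were marked more often than other pseudogenes under both marks. H3K27me1 marked 197 of 926 transcribed pseudogenes, or 21.3% (18.8 to 24.0%), and 338 of 3917 other pseudogenes, or 8.63% (7.79 to 9.55%), beside 8.3% of all nuclear genes. H3K27me3 marked 168 transcribed pseudogenes, or 18.1% (15.8 to 20.8%), and 216 other pseudogenes, or 5.51% (4.84 to 6.27%), beside 8.32% of all nuclear genes. Protein-coding genes were marked in 5.49% of cases for H3K27me1 and 5.67% for H3K27me3. The share of transcribed pseudogenes was thus above that of all genes for each mark, while other pseudogenes were near it for H3K27me1 and below it for H3K27me3.

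These shares mix classes that differ in place and length. Of the transcribed pseudogenes, 44.1% lay inside the windows, against 82.3% of the other pseudogenes and 10.96% of protein-coding genes. The median annotated length was 781.5 bp for transcribed pseudogenes, 2043 bp for other pseudogenes and 2078 bp for protein-coding genes. In all, transcribed pseudogenes spanned 1.09 Mb and other pseudogenes 9.42 Mb.

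Inside the windows the classes stood far apart. H3K27me1 marked 35.5% of 408 transcribed pseudogenes (31.1 to 40.3%) and 9.56% of 3222 other pseudogenes (8.59 to 10.6%), with 20.4% of all genes there as background. H3K27me3 marked 28.7% of the transcribed (24.5 to 33.3%) and 5.99% of the other pseudogenes (5.22 to 6.86%), with 15.4% of all genes as background. Protein-coding genes inside the windows were marked in 22.7% of cases for H3K27me1 and 17.5% for H3K27me3, between the 2 classes of pseudogenes. Counted in bases, H3K27me1 covered 25.1% of transcribed and 8.18% of other pseudogene sequence inside the windows, and H3K27me3 covered 17.95% and 4.75% of the same sequence.

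Outside the windows all shares were lower. H3K27me1 marked 10.0% of 518 transcribed pseudogenes (7.74 to 12.9%) and 4.32% of 695 other pseudogenes (3.04 to 6.10%), with 5.32% of all genes as background. H3K27me3 marked 9.85% of the transcribed (7.57 to 12.7%) and 3.31% of the other pseudogenes (2.22 to 4.92%), with 6.58% of all genes as background. Protein-coding genes outside the windows were marked in 3.37% of cases for H3K27me1 and 4.21% for H3K27me3.

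Most members carried no peak at all. No base of either mark lay in 587 transcribed pseudogenes (63.4%) or in 2930 other pseudogenes (74.8%), beside 69.2% of all nuclear genes. H3K27me1 touched 306 transcribed (33.05%) and 911 other pseudogenes (23.3%), beside 23.2% of all nuclear genes. It covered 170 transcribed (18.4%) and 257 other pseudogenes (6.56%) in full, beside 6.48% of all nuclear genes. H3K27me3 touched 269 transcribed (29.05%) and 633 other pseudogenes (16.2%), beside 25.2% of all nuclear genes. It covered 138 transcribed (14.9%) and 161 other pseudogenes (4.11%) in full, beside 6.41% of all nuclear genes. Where H3K27me1 touched a transcribed pseudogene, it covered the whole of it in 55.6% of cases, against 28.2% for other pseudogenes. For H3K27me3 the same shares were 51.3% of touched transcribed pseudogenes and 25.4% of touched other pseudogenes. Over all nuclear genes they were 27.9% for H3K27me1 and 25.5% for H3K27me3, so other pseudogenes were near the share of all genes. Those shares are not matched for length.

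Short pseudogenes were marked more often than long ones in both classes. Inside the windows, H3K27me1 marked 50.8% of 132 transcribed pseudogenes under 500 bp, 43.3% of 104 from 500 up to 1000 bp, 23.5% of 115 from 1000 up to 2000 bp and 14.0% of 43 from 2000 up to 4000 bp. None of the 14 transcribed pseudogenes of 4000 bp or more was marked, which with so few allows a share of up to 21.5%. The same steps gave 20.6% of 218, 17.7% of 598, 13.4% of 740, 3.996% of 1051 and 2.60% of 615 other pseudogenes. The decline with length was also present for H3K27me3, from 47.0% of transcribed pseudogenes under 500 bp down to 6.98% from 2000 up to 4000 bp. Other pseudogenes had 16.5% and 1.81% in those length classes. Bases covered, which do not depend on the 50% threshold, declined too: H3K27me1 covered 53.9% of the bases of transcribed pseudogenes under 500 bp and 10.4% of those of 4000 bp or more, and 19.9% and 6.04% of the bases of other pseudogenes.

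**Figure D1:**
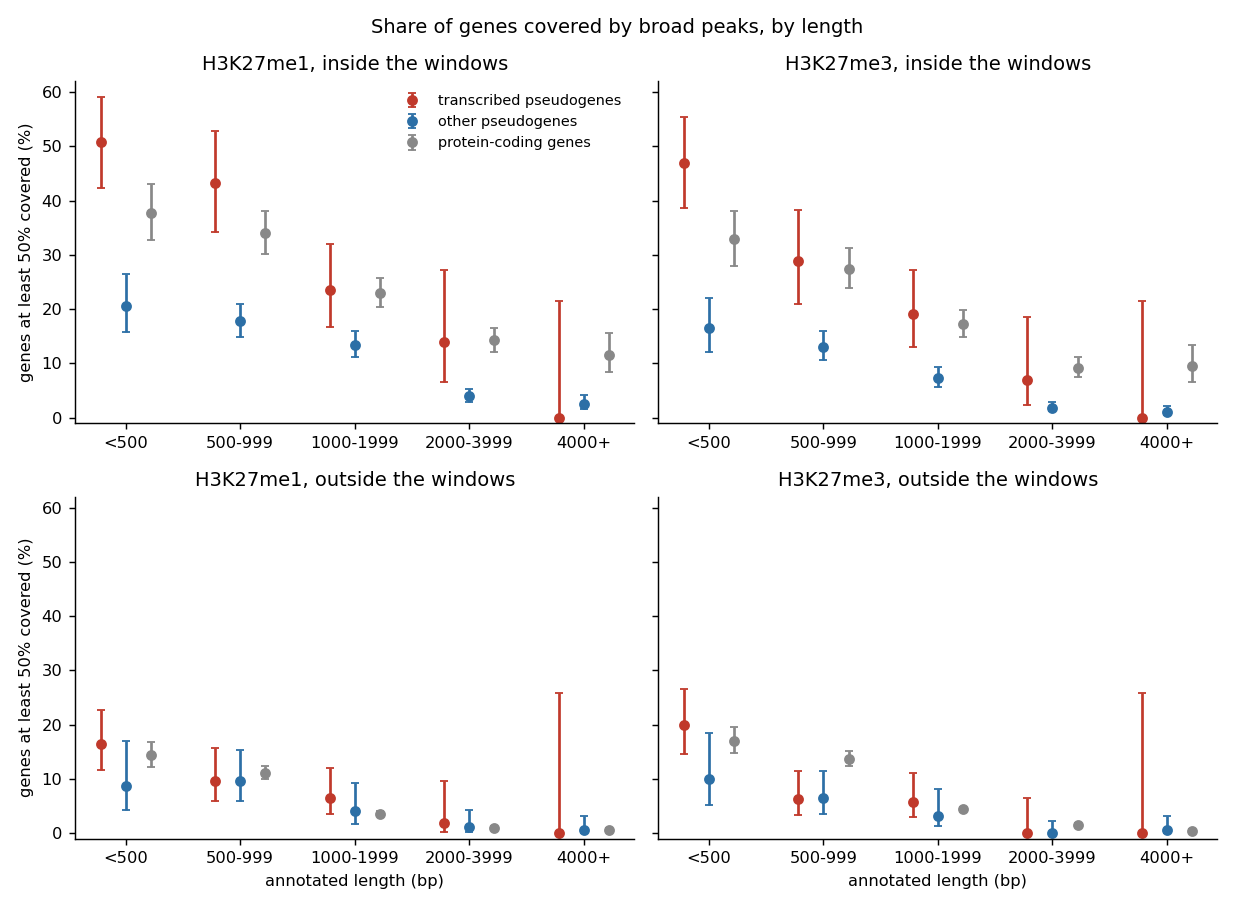
Share of genes at least 50% covered by broad peaks (y axis, percent) by annotated length (x axis, bp), for each mark inside and outside the windows; points are shares and bars Wilson 95% intervals over genes. Inside the windows transcribed pseudogenes lie above other pseudogenes in the 4 length classes under 4000 bp, for H3K27me1 at 50.8% against 20.6% under 500 bp.

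At like length the difference between the classes remained inside the windows. Other pseudogenes were weighted to the numbers of transcribed ones in the 5 length classes above. Position within the windows was not matched, and H3K27me1 coverage of 1 Mb stretches there ran from 15.7 to 50.35%. Inside the windows 35.5% of transcribed pseudogenes and 15.5% of other pseudogenes at like length were marked by H3K27me1, a difference of 20.1 percentage points (15.2 to 24.9). H3K27me3 marked 28.7% of transcribed pseudogenes and 10.95% of other pseudogenes at like length, a difference of 17.7 points (13.2 to 22.3). The bases covered differed by 13.6 points for H3K27me1 and 10.7 points for H3K27me3. The size of the difference in marked members depended on the peak threshold, at 12.5 points for H3K27me1 and 6.96 for H3K27me3 with a −log10 q of at least 5, and 5.56 and 2.79 points with the narrow lists.

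The direction was the same on each of the 5 chromosomes. For H3K27me1 inside the windows the difference in marked members averaged 19.1 ± 9.45 points (SD over 5 chromosomes), with the lowest value of 7.005 points on chromosome 5 and the highest of 31.8 points on chromosome 3. For H3K27me3 it averaged 17.6 ± 6.27 points, again lowest on chromosome 5 (8.86) and highest on chromosome 3 (24.0). Chromosomes of 1 peak list are not replicates either, and the interval on chromosome 5 reached below 0 for H3K27me1 (-2.08 to 16.1).

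Outside the windows the difference at like length was smaller in points and depended on the settings. H3K27me1 marked 10.0% of transcribed pseudogenes and 6.80% of other pseudogenes at like length, a difference of 3.24 points whose interval held 0 (-0.403 to 6.88). H3K27me3 marked 9.85% and 5.97% of them, a difference of 3.87 points (0.300 to 7.44). Transcribed pseudogenes were higher on 4 of 5 chromosomes for H3K27me1, with chromosome 3 at -1.51 points, and on 5 of 5 for H3K27me3, with chromosome 3 at 0.382 points. Windows 1 Mb shorter on each side gave 5.09 points for H3K27me1 (1.25 to 8.92) and 7.17 for H3K27me3 (3.66 to 10.7), and 1 covered base as the threshold gave 5.59 (1.15 to 10) and 7.09 (2.63 to 11.5), so that the H3K27me1 interval then lay above 0. The H3K27me3 interval held 0 with the narrow lists (-0.122 to 1.69), with a −log10 q of at least 5 (-0.238 to 1.42) and with 80% of the length as the threshold (-0.372 to 6.57).

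One member weighs on the bases of transcribed pseudogenes. AT5G32690, on chromosome 5 inside the window, is annotated at 58519 bp, and H3K27me1 covered 8.78% and H3K27me3 2.41% of it. With it left out, the difference in bases inside the windows was 15.0 points for H3K27me1 and 12.2 points for H3K27me3. On chromosome 5 alone the H3K27me1 difference was 2.11 points without it and 3.39 points with it, and the H3K27me3 difference 3.38 points without it and 2.13 points with it.

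**Figure D2:**
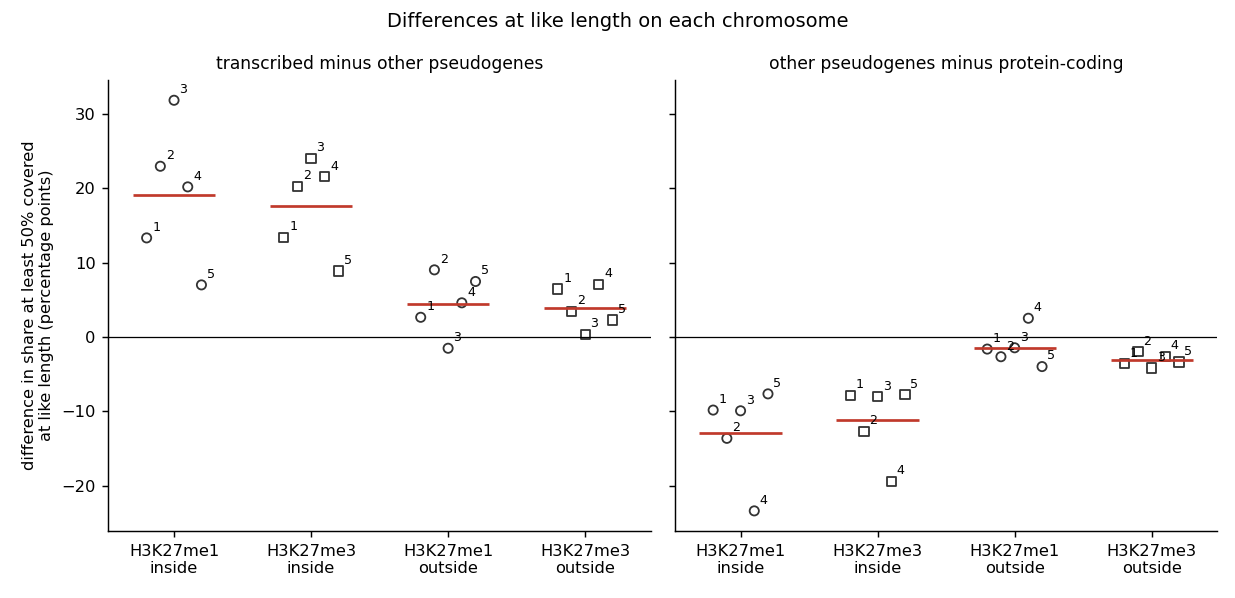
Difference in the share of genes at least 50% covered (y axis, percentage points at like length) for transcribed minus other pseudogenes (left) and other pseudogenes minus protein-coding genes (right), by mark and place (x axis); points are chromosomes, labelled by number, and lines their means. Inside the windows the left differences are above 0 and the right ones below 0 on 5 of 5 chromosomes for both marks.

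Set against protein-coding genes of like length, other pseudogenes were the class that stood apart. Inside the windows H3K27me1 marked 9.56% of other pseudogenes and 21.0% of protein-coding genes at like length, a difference of -11.4 points (-13.2 to -9.65). H3K27me3 marked 5.99% and 16.05% of them, a difference of -10.1 points (-11.6 to -8.54). Other pseudogenes were lower on 5 of 5 chromosomes for each mark, from -7.64 points on chromosome 5 to -23.4 on chromosome 4 for H3K27me1. Outside the windows the difference was -0.847 points for H3K27me1 (-2.38 to 0.688) and -2.98 points for H3K27me3 (-4.35 to -1.61).

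Transcribed pseudogenes differed less from protein-coding genes of like length. Inside the windows they were 6.32 points higher in H3K27me1-marked members at like length (1.41 to 11.2) and 4.94 points higher for H3K27me3 (0.315 to 9.57), but on only 3 of 5 chromosomes for each mark. Chromosome 4 went the other way, at -13.3 points for H3K27me1, and chromosome 3 had the highest value, at 17.2 points. In bases the difference was 0.374 points for H3K27me1 and -2.33 points for H3K27me3, so the 2 measures did not share a direction for H3K27me3. Outside the windows the differences in marked members were 1.12 points (-1.56 to 3.81) and -0.938 points (-3.58 to 1.71), and both intervals held 0.

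The low coverage of other pseudogenes was set within a landscape rich in peaks. How reads that map to several places were handled is not known. Their part in this low coverage, here and in the bins below, was not tested. Other pseudogenes make up 26.8% of the bases of the windows but held 6.68% of the H3K27me1-covered and 4.77% of the H3K27me3-covered bases there. H3K27me1 covered 8.18% of other pseudogene sequence in the windows and 41.9% of the rest of the windows, and H3K27me3 covered 4.76% and 34.85% of the same. Transcribed pseudogenes make up 1.80% of the window bases and held 1.37% of the bases covered by H3K27me1 there and 1.205% of those covered by H3K27me3. Outside the windows other pseudogenes make up 1.81% of the bases and held 0.468% of the bases covered by H3K27me1 and 0.325% of those covered by H3K27me3. Protein-coding genes were also less covered than the sequence as a whole. Outside the windows H3K27me1 covered 3.15% of other pseudogene bases, 3.77% of protein-coding bases and 12.2% of all bases. H3K27me3 covered 2.51%, 4.66% and 14.0% of the same. Inside, H3K27me1 covered 22.1% of protein-coding and 32.9% of all bases, and H3K27me3 17.8% and 26.8%.

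The low coverage of other pseudogenes was also seen bin by bin. In 1 Mb bins with at least 10 members, the bases of other pseudogenes were less covered than the bin as a whole in 29 of 29 bins inside the windows and in 25 of 25 outside, for each mark. Protein-coding genes were not compared bin by bin. Inside, the median over bins was 7.35% of other pseudogene bases under H3K27me1, between 2.22 and 16.1%, against a median of 35.0% for the whole bins. For H3K27me3 the medians were 4.655% of other pseudogene bases and 29.4% of all bases. Transcribed pseudogenes were below their bin in 11 of 20 bins inside the windows for H3K27me1 and in 16 of 20 for H3K27me3. Their bins ranged widely, from 4.33 to 58.0% for H3K27me1.

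**Figure D3:**
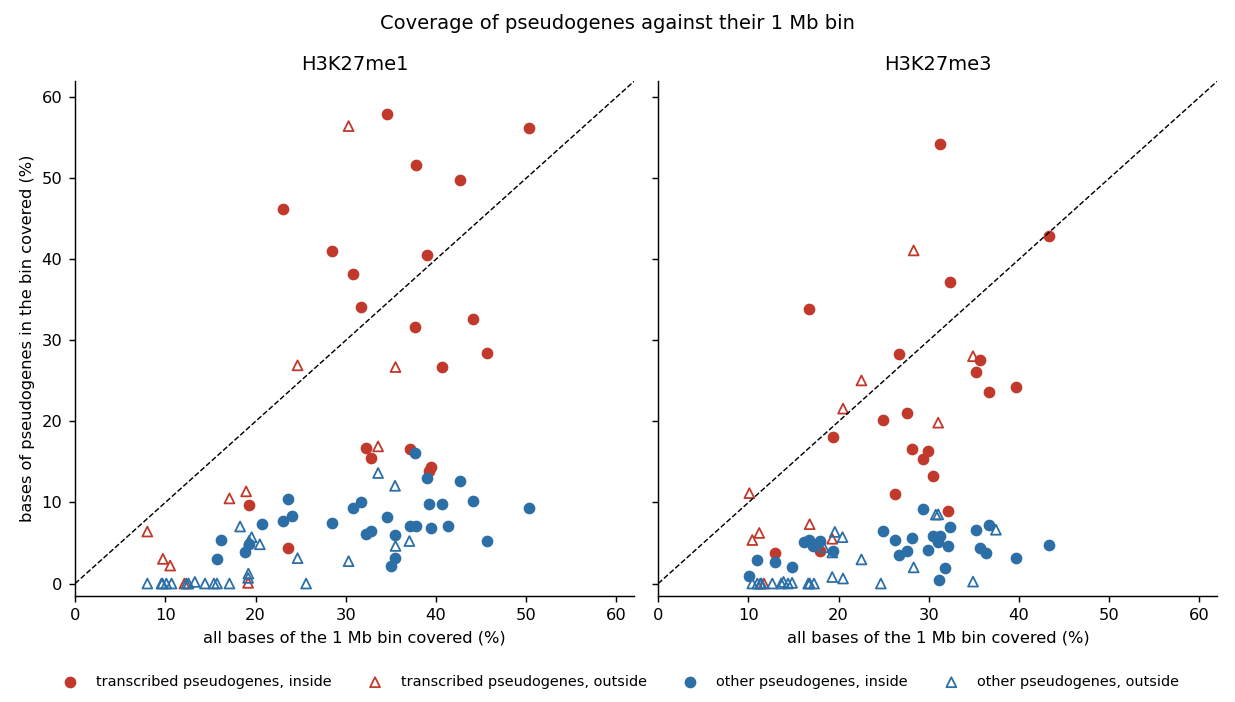
Percent of pseudogene bases covered (y axis) against percent of all bases covered (x axis) in each 1 Mb bin with at least 10 members, for H3K27me1 (left) and H3K27me3 (right); filled circles are bins inside and open triangles bins outside the windows, and the dashed line marks equal coverage. The points of other pseudogenes lie below the line in 29 of 29 inside and 25 of 25 outside bins, while those of transcribed pseudogenes lie on both sides of it.

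Coverage fell at the edges of pseudogenes. For other pseudogenes inside the windows, 33.5% of positions 1000 bp outside an edge lay under H3K27me1, 20.1% of positions 100 bp outside, and 5.52% of positions 1000 bp within members of at least 2000 bp. For H3K27me3 these values were 25.4%, 13.55% and 2.91%. Coverage beside transcribed pseudogenes was higher: 45.0% at 1000 bp outside, 45.3% at 100 bp outside and 17.5% at 1000 bp within the 57 members of at least 2000 bp, for H3K27me1. Protein-coding genes inside the windows had 47.1%, 44.3% and 15.7% at the same positions. The outer and inner parts of each curve hold different genes, since only members of at least 2000 bp have inner positions.

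Sequence next to a member was more covered than the member. Within 1 kb of transcribed pseudogenes inside the windows, 54.2% of the bases with no annotated gene lay under H3K27me1 and 45.4% under H3K27me3. Within 1 kb of other pseudogenes the values were 33.2% and 24.9%, and within 1 kb of protein-coding genes 61.95% and 55.1%. The flanks of other pseudogenes thus had 4.06 times the H3K27me1 coverage of their bodies, against 2.16 times for transcribed pseudogenes and 2.81 times for protein-coding genes. Outside the windows unannotated flanks were covered to 26.7% by H3K27me1 and 27.04% by H3K27me3 beside transcribed pseudogenes, and to 20.55% and 19.1% beside other pseudogenes. Beside protein-coding genes outside, the values were 28.7% and 33.0%. The H3K27me1 ratio of flank to body was highest for protein-coding genes there, at 7.61, against 6.53 for other and 3.50 for transcribed pseudogenes. Bodies were not matched for length in these ratios.

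**Figure D4:**
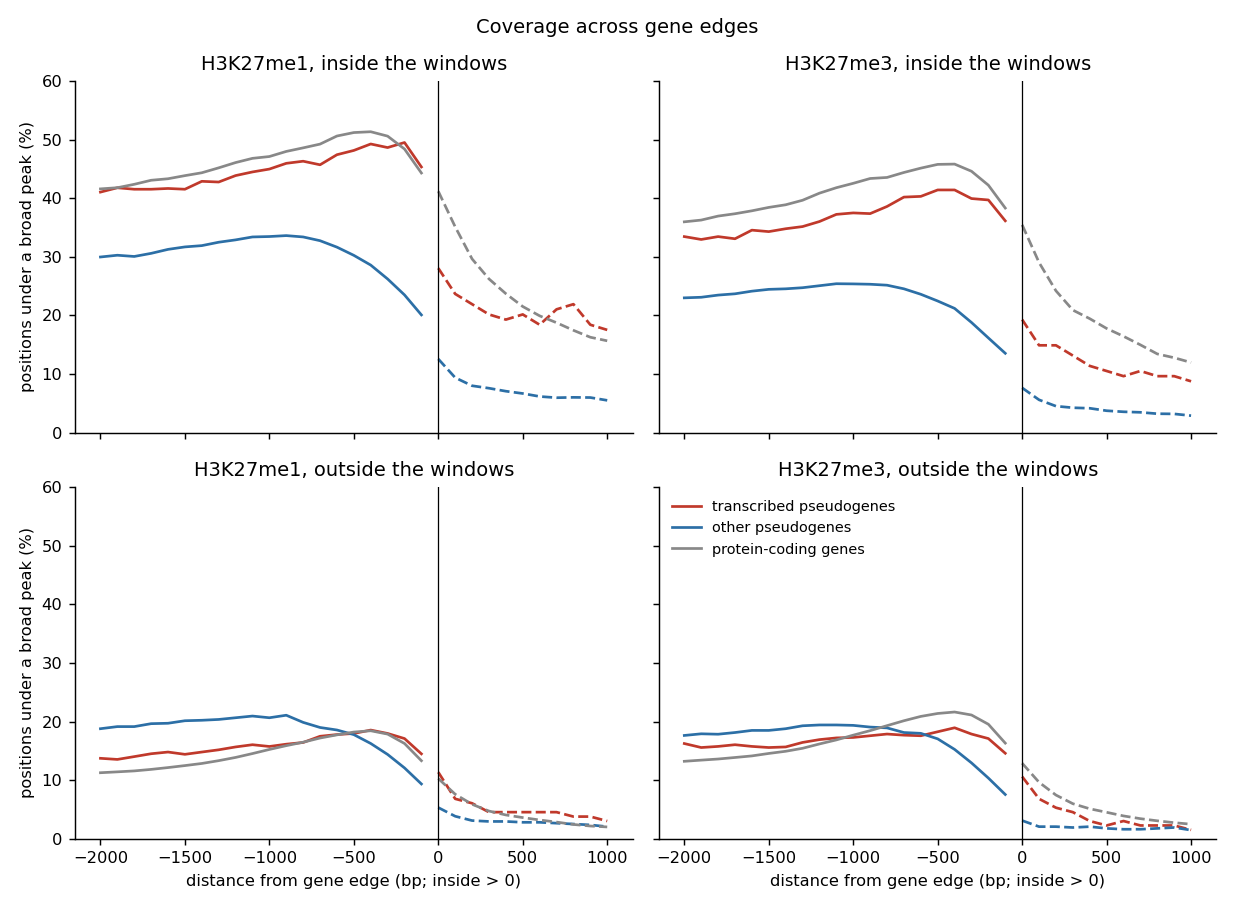
Percent of positions under a broad peak (y axis) by distance from the gene edge (x axis, bp; values above 0 are inside the gene), for transcribed pseudogenes, other pseudogenes and protein-coding genes; solid lines hold all genes of a class and dashed lines those of at least 2000 bp. Inside the windows the curve of other pseudogenes falls from 33.5% of positions at 1000 bp outside to 5.52% at 1000 bp within, for H3K27me1.

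Distance to the nearest protein-coding gene was a further difference between the classes. Inside the windows 156 of 408 transcribed pseudogenes lay within 1 kb of a protein-coding gene, against 432 of 3222 other pseudogenes, and 1991 other pseudogenes lay 5 kb or more away. Among members within 1 kb, H3K27me1 marked 28.2% of transcribed and 22.9% of other pseudogenes at like length, a difference of 5.33 points whose interval held 0 (-4.12 to 14.8). At 1 to 5 kb it marked 44.9% and 21.9% of them, a difference of 23.0 points (13.95 to 32.05). At 5 kb or more it marked 34.2% and 11.2%, a difference of 23.05 points (14.8 to 31.3). For H3K27me3 the 3 differences were 3.63 points, with an interval that held 0 (-5.39 to 12.6), 21.7 points (13.6 to 29.7) and 20.4 points (12.7 to 28.1). Whether the difference between the classes changes with distance was not tested.

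**Figure D5:**
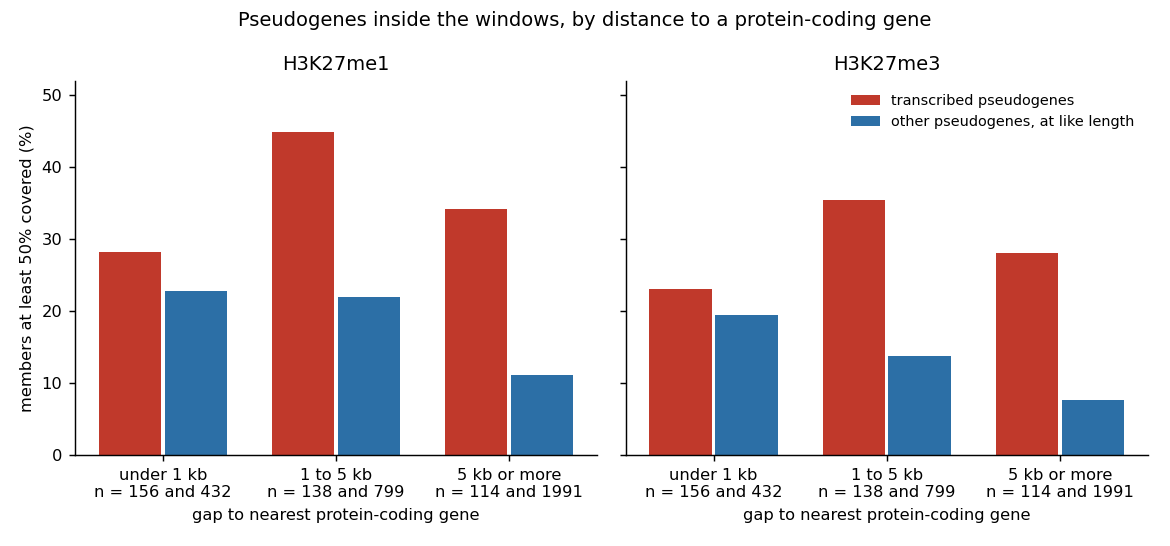
Share of pseudogenes inside the windows that were at least 50% covered (y axis, percent) by the gap to the nearest protein-coding gene (x axis), with other pseudogenes weighted to the lengths of transcribed ones; n gives transcribed and other members. The bars of the 2 classes stand at 28.2% and 22.9% under 1 kb and at 34.2% and 11.2% at 5 kb or more, for H3K27me1.

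Outside the windows, marked members were more frequent near the windows than far from them. H3K27me1 marked 30.7% of 88 transcribed pseudogenes whose midpoint was under 1 Mb from a window (22.02 to 41.0%), 8.85% of 113 at 1 to 3 Mb and 4.73% of 317 at 3 Mb or more. Other pseudogenes at the same distances were marked in 10.9% of 230, 1.18% of 169 and 1.01% of 296 cases. For H3K27me3 the transcribed pseudogenes stood at 28.4%, 8.85% and 5.05%, and the other pseudogenes at 5.65%, 2.37% and 2.03%. Lengths were not matched in these shares. Protein-coding genes at those distances were marked by H3K27me1 in 9.51%, 5.28% and 2.098% of cases and by H3K27me3 in 10.6%, 6.115% and 2.91%. Other pseudogenes were thus below protein-coding genes at each distance for H3K27me3, and for H3K27me1 at 1 Mb or more only.

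The marks overlapped on many of the marked pseudogenes, as over all nuclear genes. Among transcribed pseudogenes 144 (15.55%) were marked by both marks, 53 (5.72%) by H3K27me1 alone and 24 (2.59%) by H3K27me3 alone. All nuclear genes stood at 5.77%, 2.53% and 2.56% in those 3 states. Among other pseudogenes the counts were 183 (4.67%), 155 (3.96%) and 33 (0.84%). The share under both marks was thus below that of all genes for other pseudogenes. The members marked by both were 73.1% of the H3K27me1-marked and 85.7% of the H3K27me3-marked transcribed pseudogenes. For other pseudogenes they were 54.1% of the H3K27me1-marked and 84.7% of the H3K27me3-marked members. Over all nuclear genes the same shares were 69.5% and 69.3%, and over all genes inside the windows 66.1% and 87.7%. Inside the windows they were 73.8% and 91.45% for transcribed pseudogenes, and 54.55% and 87.05% for other pseudogenes. In bases, 64.0% of the H3K27me1 coverage of transcribed pseudogenes also lay under H3K27me3, and 51.1% of that of other pseudogenes, beside 65.9% over all nuclear genes.

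More pseudogenes were marked by H3K27me1 than by H3K27me3. The excess was 3.13 points for transcribed (1.285 to 4.98) and 3.115 points for other pseudogenes (2.44 to 3.79), against -0.175 points for protein-coding genes (-0.403 to 0.0528). Inside the windows it was 6.86 points for transcribed, 3.57 for other pseudogenes and 5.22 for protein-coding genes. Outside the windows it was 0.193 points for transcribed (-1.845 to 2.23) and 1.01 for other pseudogenes (-0.343 to 2.36), against -0.839 for protein-coding genes. In bases, H3K27me1 was higher on 5 of 5 chromosomes inside the windows for both classes of pseudogenes and on 3 of 5 outside. Protein-coding genes had the same direction on 5 of 5 chromosomes inside the windows and on 0 of 5 outside. The 2 lists were called separately and differ in peak number and in the ecotype labels of their samples, so these differences describe the lists.

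Some pseudogenes were marked by 1 mark and had 0% of the other. H3K27me1 stood alone in this sense on 30 transcribed and 87 other pseudogenes, of which 21 and 77 lay inside the windows. H3K27me3 stood alone on 14 transcribed and 22 other pseudogenes, of which 3 and 14 lay inside. Over all nuclear genes these 2 states held 1.49% for H3K27me1 and 1.8% for H3K27me3. The transcribed pseudogene AT5G37017 on chromosome 5 lay wholly under an H3K27me1 peak at chr5:14622830-14629319 with a deposited fold enrichment of 2.31, and no base of it lay under H3K27me3. AT3G28923 on chromosome 3 was likewise 100% under H3K27me1, with a fold of 1.86. AT2G13146 and AT4G07699 were the converse, with 100% under H3K27me3 and 0% under H3K27me1, at folds of 1.87 and 1.79.

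Among other pseudogenes the peak of highest H3K27me1 fold at a marked member touched AT4G06494 on chromosome 4. That peak at chr4:3131200-3133371 had a fold of 2.98, covered 50.6% of the 435 bp member, and had no H3K27me3 counterpart on it. A member at 50.6% is just inside the threshold. AT4G04293 had 100% under H3K27me1 and none under H3K27me3, at a fold of 2.11. AT2G06045, which shares bases with another gene, and AT2G10420 had 100% and 81.2% under H3K27me3 and 0% under H3K27me1.

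The peaks touching pseudogenes had folds close to the median of their lists, but a higher −log10 q. The fold of a peak is the authors' value, its enrichment over the background of the peak caller. Its median was 1.64 over the 300 H3K27me1 peaks touching transcribed pseudogenes and 1.61 over the 871 touching other pseudogenes, against 1.57 over the whole list. For H3K27me3 it was 1.68 over 256 peaks, 1.655 over 608 peaks and 1.64 over the whole list. The median −log10 q for H3K27me1 was 4.14 at transcribed and 3.72 at other pseudogenes, against 2.99 in the list. For H3K27me3 it was 3.23 at each class, against 2.67 in the list. Peaks touching members were wider, with a median of 2655 bp for transcribed and 1996 bp for other pseudogenes under H3K27me1, against 1168 bp in the list. A wider peak has more chance to touch a gene, so width and touching are not independent.

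Several transcribed pseudogenes with the highest peaks lay wholly under both marks. AT4G03926, a 285 bp member on chromosome 4 just outside its window, was 100% under both marks, by peaks at chr4:1866487-1871306 with an H3K27me1 fold of 2.40 and at chr4:1866558-1871301 with an H3K27me3 fold of 2.40. AT2G07600 and AT2G05730 on chromosome 2, AT4G05049 on chromosome 4 and AT1G45211 on chromosome 1 were also 100% under both, with H3K27me1 folds of 1.99, 1.98, 1.98 and 1.775. AT2G07600 shares bases with another gene. None of these loci has a gene symbol in the table, and their function is not given there.

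Other pseudogenes under both marks included AT5G31905 (H3K27me1 fold 2.34, H3K27me3 fold 2.32), AT2G07155 (2.25 and 2.07), AT3G44640 (2.02 and 2.12) and AT3G42835 (1.958 and 2.12), each 100% covered by both. AT4G04010 outside the window had 74.5% under H3K27me1 and 61.5% under H3K27me3. AT3G31314 had 55.35% and 56.2%. The longest members wholly covered by both marks were the other pseudogenes AT4G07967, of 4776 bp, and AT2G11165, of 3988 bp. The longest such transcribed pseudogenes were AT2G13130, of 2173 bp, and AT4G08136, of 1922 bp.

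Neighbouring pseudogenes shared peaks on chromosome 2. The H3K27me1 peak at chr2:6480182-6491567, 11386 bp wide, touched 7 members, of which the 6 transcribed pseudogenes AT2G15012 to AT2G15017 lay wholly under it. They are 185 to 208 bp long. The H3K27me3 peak at chr2:6482517-6488825 covered 5 of these 6 in full and left out AT2G15017. A second cluster lay under peaks that nearly coincide, at chr2:5416647-5430917 for H3K27me1 and chr2:5416646-5434832 for H3K27me3. It held AT2G13128, AT2G13130 and AT2G13145 among transcribed and AT2G13140, AT2G13142 and AT2G13143 among other pseudogenes, each 100% under both marks, and AT2G13146 under H3K27me3 alone. Most peaks that touched a member touched 1 only: 976 of 1127 H3K27me1 peaks and 763 of 842 H3K27me3 peaks.

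A gene symbol was given for 40 transcribed and 27 other pseudogenes. H3K27me1 marked 3 and H3K27me3 marked 2 of the transcribed ones, and the counts for the other ones were 5 and 2. The background over all nuclear genes is 8.3% for H3K27me1 and 8.32% for H3K27me3, and with so few members these counts are not read as a difference from it. AGL88, which belongs to the MADS-box transcription factor family, was 100% under both marks on chromosome 2, with folds of 1.86 for H3K27me1 and 1.80 for H3K27me3. EXPA19, named as an expansin, a family that loosens plant cell walls, had 100% under H3K27me1 and 12.4% under H3K27me3. LURE1.6, named after the LURE peptides that attract pollen tubes, lay outside the window on chromosome 5 with 100% under H3K27me1 and 4.05% under H3K27me3. RLP18, a receptor-like protein by name, had the opposite balance, with 12.3% under H3K27me1 and 60.95% under H3K27me3.

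CYP51G2, named for a family of sterol demethylases, lay just under the threshold, and ATPP2-B3, named for a phloem protein, lay further below it. CYP51G2 had 48.6% under H3K27me1 and 47.5% under H3K27me3, and ATPP2-B3 had 41.9% and 35.9%. None of the 12 transcribed pseudogenes described as cytochromes P450, CYP51G2 among them, was marked by either mark, and 1 of the 12 lay inside the windows. Of all genes outside the windows, 5.32% were marked by H3K27me1 and 6.58% by H3K27me3. With 12 members the count is not read as a difference from that background. The relic of a self-incompatibility receptor kinase, PSEUDOSRKA, had 0.879% under H3K27me1 and 0% under H3K27me3. AOP2, whose functional alleles act in glucosinolate synthesis, and ACS3, named for the enzyme of ethylene synthesis, had 0% under both.

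Words for mobile elements in the name or description were found for 17 other and 0 transcribed pseudogenes. Of these, 16 are SADHU elements, a family of short retroelements of Arabidopsis, and 1 is the retrotransposon RE2. The search could reach few members, since only 27 of 3917 other pseudogenes have a symbol, and 3900 held none of the words searched. It also missed the MUG members named below. How many other pseudogenes are mobile elements is therefore unknown. H3K27me1 marked 5 and H3K27me3 marked 2 of the 9 SADHU members inside the windows, where 20.4% and 15.4% of all nuclear genes were marked by these marks. SADHU9-1 and SADHU3-1 were 100% under both marks, while SADHU4-1 (3.19%), SADHU1-1 and SADHU3-2 (0% each) were 100% under H3K27me1 with the stated share under H3K27me3. SADHU7-2, SADHU5-2 and SADHU1-3, also inside, had 0% of both, and SADHU2-1 had 9.54% under H3K27me1 and 2.69% under H3K27me3. None of the 8 members outside the windows that the words matched had a base under either mark. Of all nuclear genes outside the windows 72.9% had no base of either mark, as had 86.3% of other pseudogenes there. With so few members, neither this count nor the MUG values outside are read as a difference from that background. Among the MUG members, of the transposase-derived MUSTANG family, MUG8 inside the window on chromosome 5 had 17.55% under H3K27me1 and 17.6% under H3K27me3, and MUG1, MUG2, MUG4, MUG5 and MUG6 outside had 0% of both.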

How the data were processed

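Sperm nuclei of htr10 plants gave 9 samples in 3 groups of 3, namely H3K27me1 immunoprecipitation, H3K27me3 immunoprecipitation and input. Per the submitters' processing notes, the tools were MACS2 2.1.0, deepTools 2.5.0.1, bedtools, Picard, SAMtools 1.3, Bowtie2 2.1.0 and Trim Galore 0.4.1, listed without roles, on the TAIR10 build. The sources used here do not say how samples and inputs were combined for peak calling or how multi-mapping reads were handled. Pseudogenes can be near-copies of other loci, and the part of such reads in their coverage was not tested. The authors deposited 4 peak lists, 1 broad and 1 narrow for each mark, and each is shared by the 3 samples of its mark. From the column layout, the authors' values per peak are a fold enrichment (a ratio), a −log10 p-value, a −log10 q-value and a display score. The fold and the −log10 q served only to rank, describe and select peaks of the same list. The lowest deposited −log10 q in the broad lists was 1.02. No column of per-sample values was left unmapped (0 columns).

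Broad peaks on chromosomes 1 to 5 were merged, and the percent of each gene's length under them was computed with Python 3.11.15, pandas 2.3.3 and NumPy 2.4.6, with steps tested on simulated intervals. Genes came from a RefSeq table of 38312 genes on TAIR10.1. Because the peaks are on TAIR10, gene coordinates are not given, and those of peaks are as deposited, in 1-based form. The 6 pseudogenes on organelle chromosomes were left out. Like length means 5 classes with limits at 500, 1000, 2000 and 4000 bp, with the compared class weighted to the class counts of the first. The splits by distance to a protein-coding gene and to a window were added after values were seen.

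Named members followed a rule. For each class and mark it took the 4 marked members under the peaks of highest fold, with 1 member per peak. It added the 2 longest members wholly under both marks, the 2 members of highest fold with 1 mark and none of the other, the 6 members with a symbol and the highest summed coverage, and the 2 peaks per mark touching most members. Further members with a symbol were chosen after their values were seen, as was AT5G32690. The members, lists and windows were chosen with earlier results of these data known.

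Alternatives were the narrow lists, peaks with −log10 q of at least 5, the top 50% of each list by fold, 1 base or 80% of the length as the threshold, windows 1 Mb shorter on each side, members sharing no base with another gene, 10 length classes, and, added after the data were seen, leaving out AT5G32690.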

Additional observations from a re-analysis of the deposited data

How the results depend on the processing

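No paired analysis was possible because the peak lists hold no value per sample, and for the same reason no replicate could be left out. Depth is unknown, and the peak threshold set the level of every share. Transcribed pseudogenes stayed above other pseudogenes at like length under 9 of 9 alternatives for each mark, with differences in marked members between 5.56 and 28.8 points for H3K27me1 and 2.79 and 26.2 points for H3K27me3 inside the windows, and between 0.197 and 5.59 and between 0.593 and 7.17 points outside. No direction reversed. The cause of the changes in size below was not tested beyond the smaller or larger covered length that each alternative sets.

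With the narrow lists, H3K27me1 marked 3.13% and H3K27me3 1.94% of transcribed pseudogenes (difference 1.19 points), and 0.485% and 0.23% of other pseudogenes (difference 0.255 points). Both marks, H3K27me1 alone and H3K27me3 alone held 16, 13 and 2 transcribed and 6, 13 and 3 other members. The class difference inside the windows was 5.56 points for H3K27me1 and 2.79 for H3K27me3.

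With −log10 q of at least 5, the shares were 9.61% and 5.18% of transcribed and 3.88% and 1.68% of other pseudogenes, with a mark difference of 2.2 points for the other class. Both marks held 41 transcribed and 59 other members, H3K27me3 alone 7 and 7, and H3K27me1 alone 93 other members. The class difference inside was 12.5 points for H3K27me1 and 6.96 for H3K27me3.

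With the 50% of peaks of highest fold, the shares were 15.3% and 11.6% of transcribed and 6.05% and 3.4% of other pseudogenes. Both marks held 84 transcribed and 112 other members and H3K27me3 alone 21 other members, and the H3K27me3 class difference inside was 11.5 points.

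With 1 covered base as the threshold, the shares were 33.0% and 29.0% of transcribed and 23.3% and 16.2% of other pseudogenes, with a mark difference of 7.1 points for the other class. Both marks touched 236 transcribed and 557 other members, H3K27me1 alone 354 and H3K27me3 alone 76 other members, and the class difference inside was 28.8 points for H3K27me1 and 26.2 for H3K27me3. With 80% of the length, other pseudogenes stood at 7.1% for H3K27me1 and 4.47% for H3K27me3. Members sharing no base with another gene, 10 length classes and leaving out AT5G32690 moved no share, count or difference in marked members by more than 1.5 times.

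The class difference outside the windows moved by more than 1.5 times under several alternatives. For H3K27me1 it was 0.197 points with the narrow lists, 0.674 with −log10 q of at least 5, 2.11 with the peaks of highest fold, 5.59 with 1 covered base and 5.09 with shorter windows. For H3K27me3 it was 0.786 points with the narrow lists, 0.593 with −log10 q of at least 5, 7.09 with 1 covered base and 7.17 with shorter windows.

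Of the marked members, peaks with −log10 q of at least 5 still marked 89 of 197 transcribed and 152 of 338 other pseudogenes for H3K27me1, and 48 of 168 and 66 of 216 for H3K27me3.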
